A study of Mus musculus with 6 samples.

Results

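Small leucine-rich proteoglycans are secreted matrix proteins built around a curved stack of leucine-rich repeats. Many carry chains of chondroitin, dermatan or keratan sulfate, and several bind collagen fibrils and set their thickness and spacing. Decorin and biglycan also bind growth factors such as TGF-beta, and soluble biglycan is known to act on Toll-like receptors. In the gut these genes are made mainly by fibroblasts and related cells of the stroma rather than by the epithelium.

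The 8 genes described here are Dcn (decorin), Bgn (biglycan), Aspn (asporin), Lum (lumican), Prelp (prolargin), Fmod (fibromodulin), Omd (osteomodulin) and Ogn (osteoglycin). They were picked by symbol from the 26214 genes of the deposited count tables, as members of the family, with their knockout and wild-type levels already known. All 8 were present, and all 8 passed the filter on low counts, which left 16281 genes. Because the choice used the contrast between the genotypes, that contrast is given below as a description of these genes, with no test of them. The libraries were made from colon tumours of mice given azoxymethane (AOM), a carcinogen, and dextran sulfate sodium (DSS), which injures the colon lining. One group came from 3 samples of Trim21 -/- mice and the other from 3 samples of Trim21 +/+ mice, and both received AOM and DSS. Trim21 encodes a ubiquitin ligase and cytosolic antibody receptor. The labels call the samples biological replicates but give no age, sex or strain. Whether different samples came from different mice is not stated, and the spread given here is that between these samples.

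Library totals lay between 17937821 and 29742757 reads and were lower in the knockout group. Trim21 itself had 244 to 345 reads in the knockout libraries and 527 to 887 in the wild-type libraries (14.6 ± 3.76 against 23.2 ± 5.68 CPM, reads scaled to library size, mean ± SD, n = 3 each), so it was lower but not absent. Markers of the labelled tissue were present: 15 colon epithelium genes summed to 8982 to 9485 CPM in the knockout libraries and 7594 to 8875 CPM in the wild-type libraries. Ddx3y, a Y-linked gene, had 1851 to 3319 reads in every library, which bears on Bgn, the X-linked member. Wild-type replicate 1 stood apart in several gene groups: it was the lowest library for 5 of the 8 proteoglycans and the highest for 0. It also had the lowest mean of the smooth muscle list, at 4.21 on the log2 CPM scale against 5.37 to 6.42 in the other libraries. The same held for the colon epithelium list, at 6.83 against 7.66 to 8.29, and for the fibroblast list, at 3.84 against 4.12 to 4.76. Wild-type replicate 1 was not low for the collagen list, at 5.86 between 5.41 and 6.38.

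In mouse the family lies in small clusters, and 7 of the 8 genes sit beside another member. On mm10, Aspn (chr13:49544443-49567565), Omd (chr13:49582462-49592822) and Ogn (chr13:49608046-49624501) follow each other on the plus strand of chromosome 13, with gaps of 14.9 and 15.2 kb and no coding gene between neighbours. Dcn (chr10:97479609-97518143) and Lum (chr10:97565128-97572703) are 47.0 kb apart on the plus strand of chromosome 10. Prelp (chr1:133910304-133921414, minus strand) and Fmod (chr1:134037254-134048277, plus strand) are 115.8 kb apart on chromosome 1. Bgn (chrX:73483602-73495933, plus strand) lies alone on the X chromosome. All 8 are annotated as protein-coding. The chromosome 13 genes lie inside Cenpp, a centromere protein gene on the opposite strand that spans chr13:49464023-49652785. Of the exonic bases of these genes, 7 in Aspn and 0 in Ogn and Omd fall in Cenpp exons, so reads of mature transcripts are largely distinct. Prelp shares 350 exonic bases with an antisense transcript, Gm15851, and without strand the reads of that stretch cannot be told apart. The strand setting of the read counting is not given in the sources used here.

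The sequence before the start site is shown for 3 genes on which the comparison turns. Ogn and Aspn lie on either side of Omd on chromosome 13, and the levels of each did not overlap between the genotypes. Bgn is an abundant member from another locus. Each sequence is the 250 bases before the RefSeq start on GRCm38.p6, read 5′ to 3′ along the gene, with matches to any of 6 short motifs in capitals.
Ogn, chr13:49607765-49608014, plus strand: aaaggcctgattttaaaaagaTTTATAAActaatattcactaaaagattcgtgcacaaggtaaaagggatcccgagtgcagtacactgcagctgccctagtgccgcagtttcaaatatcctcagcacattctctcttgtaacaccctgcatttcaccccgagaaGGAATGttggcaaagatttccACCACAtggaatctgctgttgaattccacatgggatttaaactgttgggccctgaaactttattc
Aspn, chr13:49544193-49544442, plus strand: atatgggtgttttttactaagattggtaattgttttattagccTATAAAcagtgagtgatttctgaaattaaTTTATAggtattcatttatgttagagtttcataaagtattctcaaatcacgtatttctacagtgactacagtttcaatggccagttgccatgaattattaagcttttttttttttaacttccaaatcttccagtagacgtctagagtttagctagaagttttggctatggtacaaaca
Bgn, chrX:73483351-73483600, plus strand: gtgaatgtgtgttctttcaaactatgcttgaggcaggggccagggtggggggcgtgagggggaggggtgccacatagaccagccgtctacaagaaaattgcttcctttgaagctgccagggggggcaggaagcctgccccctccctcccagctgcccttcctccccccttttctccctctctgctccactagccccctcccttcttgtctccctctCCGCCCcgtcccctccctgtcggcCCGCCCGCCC
The motifs searched on both strands were the TATA box TATAAA, the AP-1 site TGANTCA, the SMAD element CAGACA, the TEAD site GGAATG, the RUNX site TGTGGT and the GC box GGGCGG. The window of Ogn held TATAAA on both strands, in overlapping matches, with GGAATG 86 bases before the start and the reverse complement of TGTGGT 65 bases before it. The window of Aspn held TATAAA on each strand, at 207 and 178 bases before the start. The window of Bgn held 3 GC boxes in its last 34 bases, and 64.4% of its bases were G or C, against 42.0% for Ogn and 30% for Aspn. Among 32851 RefSeq promoter windows of the same length, TATAAA was found in 12.4%, TGANTCA in 6.75%, CAGACA in 17.1%, GGAATG in 12.6%, TGTGGT in 14.0% and GGGCGG in 32.7%. These matches describe the letters only.

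Decorin and biglycan dominated the family, and fibromodulin and osteomodulin were close to the detection limit. To compare genes, CPM was divided by the total length of the exons of each gene in kilobases. Over the 6 libraries Dcn averaged 55.5 ± 12.6 and Bgn 49.1 ± 13.8 CPM per kb (SD, n = 6), above 94.9% and 94.1% of the tested genes with a known length. Ogn averaged 18.6 ± 8.08, Prelp 15.1 ± 5.44, Lum 14.6 ± 6.46 and Aspn 11.5 ± 4.80 CPM per kb. Fmod and Omd followed far below, at 0.567 ± 0.568 and 0.299 ± 0.116 CPM per kb, above only 11.6% and 6.16% of the genes. Not every step of this order was firm: Ogn exceeded Prelp in 5 of 6 libraries, Prelp exceeded Lum in 3 of 6, and Fmod exceeded Omd in 3 of 6, whereas Bgn exceeded Ogn, Lum exceeded Aspn and Aspn exceeded Fmod in 6 of 6. The order of Dcn and Bgn depended on the length used. Dcn was higher in 5 of 6 libraries with all annotated exons of Bgn (6099 bases) and in 0 of 6 with its longest transcript (2666 bases).

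**Figure D1:**
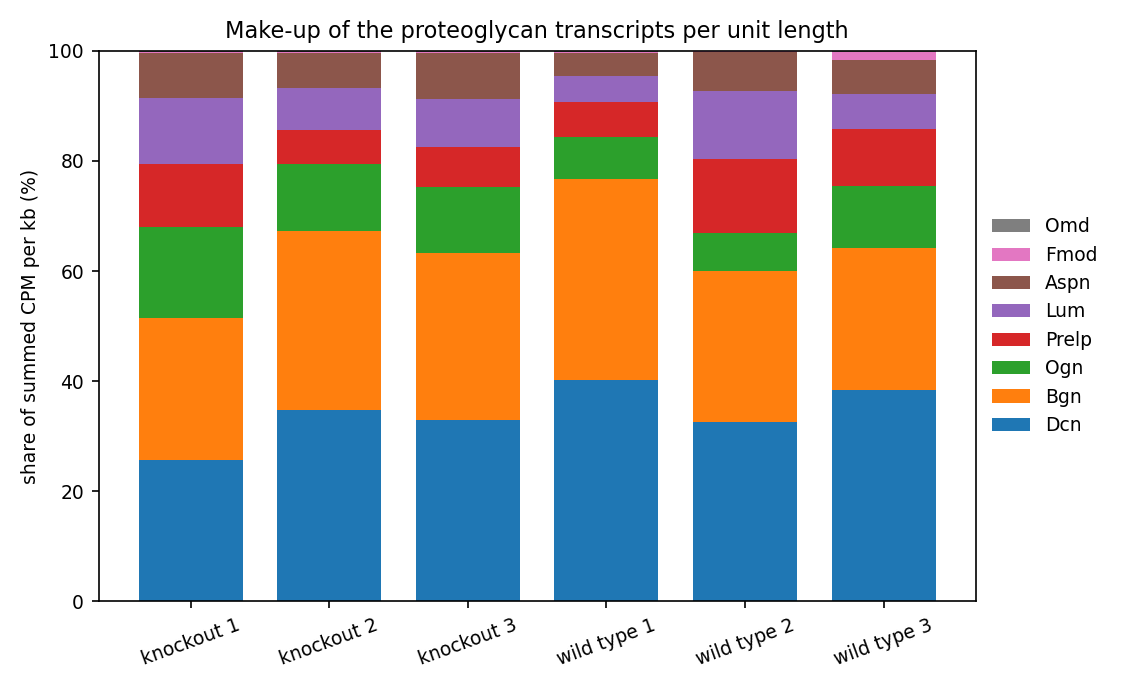
Share of each proteoglycan in the summed CPM per kb of the 8 genes (vertical axis, percent) in each of the 6 libraries (horizontal axis), stacked from Dcn at the bottom to Omd at the top. Dcn and Bgn are the tallest segments in every library, and the Fmod segment is visible mainly in wild-type replicate 3, where it is 1.36%.

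As shares of the summed level per length, Dcn took 25.6% to 40.2% and Bgn 25.8% to 36.5% of the family in a library. The share of Ogn was 16.5%, 12.1% and 11.9% in the knockout (replicates 1 to 3) against 7.63%, 6.84% and 11.2% in the wild type. The lowest knockout share lay just above the highest wild-type share. The shares of Prelp (6.28% to 13.5%), Lum (4.76% to 12.3%) and Aspn (4.26% to 8.38%) varied from library to library. The 8 genes together held 0.0727%, 0.0957% and 0.105% of the reads in the knockout libraries and 0.0611%, 0.0788% and 0.0605% in the wild-type libraries, so wild-type replicate 2 lay among the knockout values.

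Across the genotypes, all knockout values of Ogn and of Aspn lay above all wild-type values, and the other 6 genes overlapped. That is 2 of 8 higher and 0 lower without overlap, where 9.43% of all tested genes were higher and 8.47% lower in this way, 17.9% in all. The log2 fold change, knockout minus wild type, was positive for 7 of the 8, against 47.9% of all tested genes, and its median was 0.52 against −0.01 over all 16281. Nothing is read from these counts, since the genes were chosen with this contrast known.

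**Figure D2:**
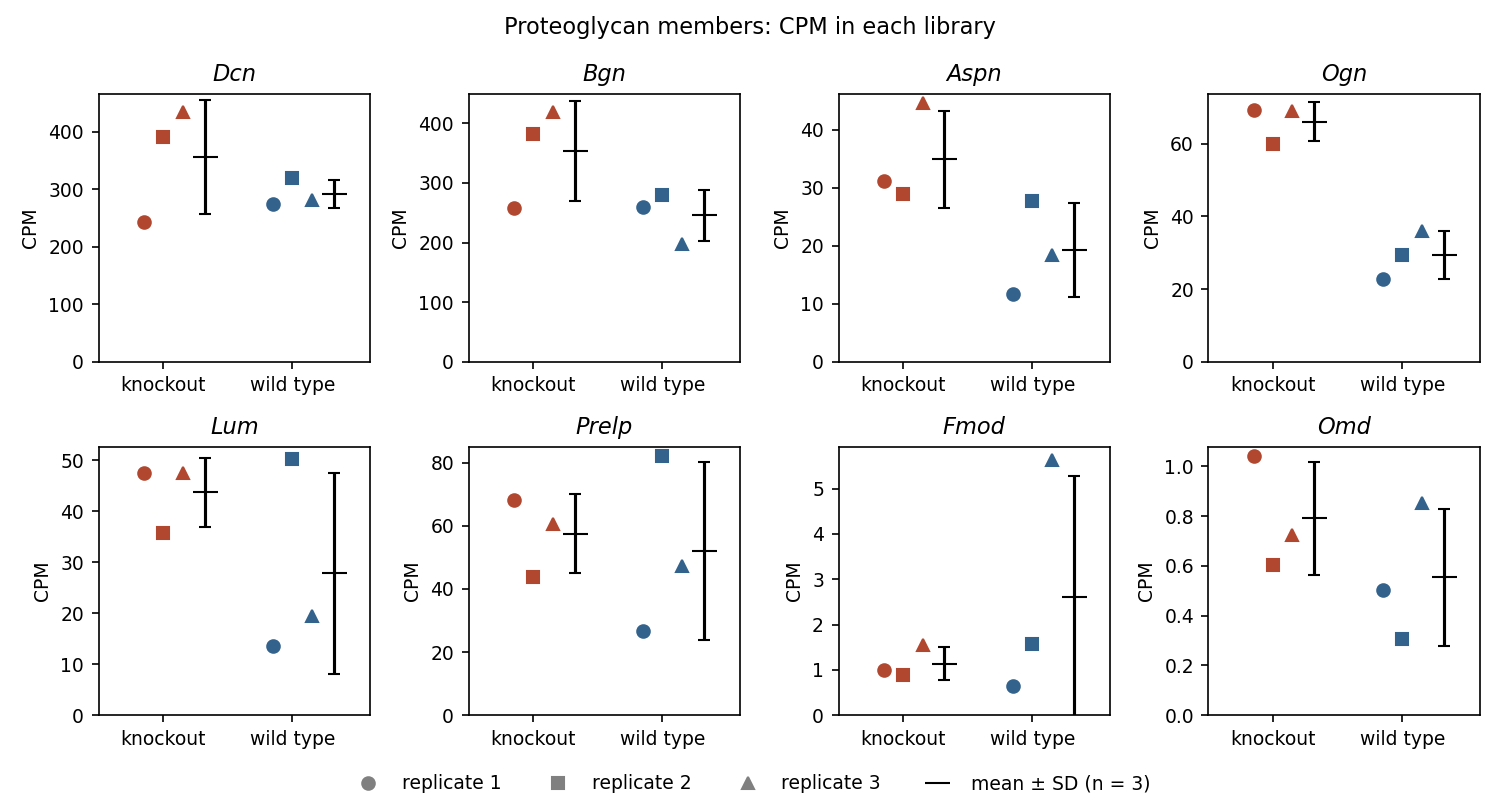
CPM (vertical axes, each from 0) of the 8 proteoglycan genes in each library, with knockout in red and wild type in blue, marker shape for the replicate number and a black mean ± SD (n = 3) beside each group. Ogn and Aspn are the panels in which the red and blue points do not overlap, and wild-type replicate 3 stands alone at 5.64 CPM in the Fmod panel.

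Osteoglycin, a class III member that is processed to a small form in connective tissue, had the highest fold change of the 8 genes and the smallest standard error. Its level was 69.3, 59.9 and 68.9 CPM in the knockout (replicates 1 to 3, as in all lists of values here) against 22.8, 29.4 and 36.1 CPM in the wild type. The knockout libraries were close to each other, and the lowest of them lay well above the highest wild-type library. The means were 66.0 ± 5.33 and 29.4 ± 6.61 CPM (SD, n = 3). On the log2 scale the fold change was 1.16 (SE, standard error, 0.17), or 2.24-fold, and it ranged from 1.01 to 1.33 when single libraries were left out.

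Among the class I genes, which carry chondroitin or dermatan sulfate or, in asporin, a run of aspartate in its place, Aspn differed most. Aspn stood at 31.2, 29.0 and 44.6 CPM in the knockout against 11.7, 27.8 and 18.5 CPM in the wild type. The groups were separated by little, since wild-type replicate 2 lay just below knockout replicate 2. This gave a log2 fold change of 0.85 (SE 0.32). It ranged from 0.59 without wild-type replicate 1 to 1.21 without wild-type replicate 2.

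Biglycan showed a smaller difference with overlap. Bgn stood at 258.2, 382.7 and 419.3 CPM in the knockout against 259.6, 279.9 and 197.8 CPM in the wild type. Knockout replicates 2 and 3 were high, and knockout replicate 1 fell inside the wild-type range. On the log2 scale the difference was 0.52 (SE 0.20), and it ranged from 0.38 without knockout replicate 3 to 0.71 without knockout replicate 1.

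Decorin, the most abundant member by reads in 5 of 6 libraries other than knockout replicate 1, differed least among the class I genes. Dcn stood at 243.8, 390.1 and 434.1 CPM in the knockout against 274.0, 318.8 and 281.6 CPM in the wild type. Knockout replicate 1 was the lowest of all 6 libraries, and the other 2 knockout libraries were the highest. Its log2 fold change was 0.29 (SE 0.20) and ranged from 0.12 without knockout replicate 3 to 0.51 without knockout replicate 1.

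The class II genes, which carry keratan sulfate or no chain, had a wide spread in the wild type. Lum, which encodes a regulator of collagen fibril thickness, stood at 47.6, 35.7 and 47.6 CPM in the knockout against 13.6, 50.3 and 19.5 CPM in the wild type. Wild-type replicate 2 was the highest of all libraries and the other 2 wild-type libraries the lowest. The resulting log2 fold change was 0.65 (SE 0.45). It was 1.40 without wild-type replicate 2 and 0.32 without wild-type replicate 1.

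Prolargin, which anchors basement membranes to connective tissue, had the same shape. Prelp stood at 68.1, 43.7 and 60.4 CPM in the knockout against 26.6, 82.1 and 47.2 CPM in the wild type. The lowest and the highest library were both wild type, replicates 1 and 2. The difference was 0.14 on the log2 scale (SE 0.38), and its sign turned without wild-type replicate 1, to −0.17. Without wild-type replicate 2 it was 0.64.

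Fibromodulin, a collagen-binding relative of lumican, was nearly silent in 5 libraries. Fmod had 20, 16 and 30 reads in the knockout replicates and 19, 46 and 152 reads in the wild type, or 0.992, 0.879 and 1.55 against 0.637, 1.56 and 5.64 CPM. Wild-type replicate 3 alone was high. The log2 fold change of −1.19 (standard error 0.77), the only negative one among the 8, rested on that library and was 0.05 without it.

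Wild-type replicate 3 was also the highest library for Kera, Ecm2 and Chadl, other genes of the family at low level. Kera (keratocan), the neighbour of Lum, had 24 reads there and 0 in the other 5 libraries. Ecm2, the neighbour of Aspn, had 189 reads there against 43 to 127 elsewhere. Chadl (chondroadherin-like) stood at 1.78 CPM there, close to the 1.58 and 1.66 CPM of the other wild-type libraries. The bone and cartilage markers did not follow: their summed level was 3.11 CPM in wild-type replicate 3 and 3.01 to 10.3 CPM in the other libraries.

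Osteomodulin, named for its place in bone matrix, was at the limit of detection. Omd had 21, 11 and 14 reads in the knockout replicates and 15, 9 and 23 reads in the wild type, too few to show a difference at this depth. Its log2 fold change was 0.52, as large as its standard error (0.52).

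**Figure D3:**
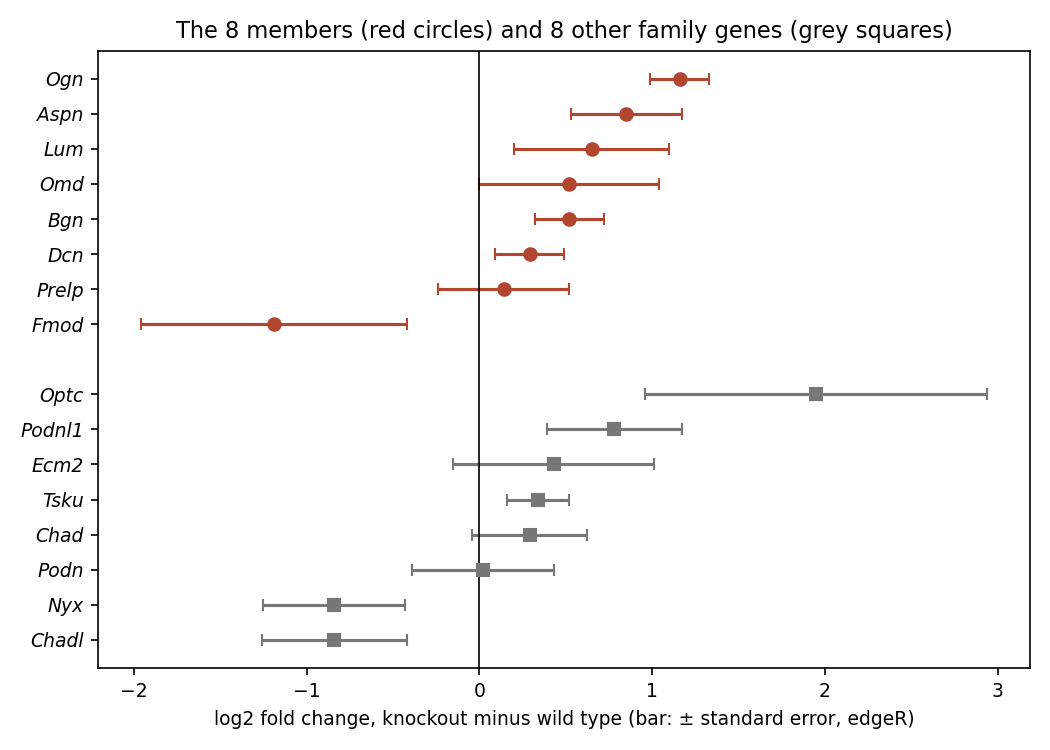
Log2 fold change, knockout minus wild type (horizontal axis), with its standard error from edgeR as a bar, for the 8 proteoglycan genes (red circles) and 8 other tested genes of the family (grey squares). Among the red circles Ogn lies farthest right at 1.16 and Fmod alone lies left of 0, at −1.19.

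Ratios of reads within a library do not depend on scaling between libraries, and 11 were computed. The reads of Ogn per read of Dcn were 0.284, 0.153 and 0.159 in the knockout replicates and 0.0834, 0.0923 and 0.128 in the wild type. Each knockout ratio was above each wild-type ratio, and the mean log2 ratio differed by 0.94. The Bgn to Dcn ratio was 1.06, 0.981 and 0.966 in the knockout and 0.947, 0.878 and 0.702 in the wild type, a small difference that did not overlap either. These were 2 of the 7 ratios to Dcn whose groups did not overlap, where 8.33% of all genes taken relative to Dcn did not overlap. The Prelp to Lum ratio was 1.43, 1.22 and 1.27 in the knockout and 1.96, 1.63 and 2.43 in the wild type, without overlap, and 4.56% of all genes did not overlap relative to Lum. The Ogn to Prelp ratio was 1.02, 1.37 and 1.14 in the knockout and 0.86, 0.358 and 0.764 in the wild type, also without overlap, and relative to Prelp 3.54% of all genes did not. The other ratios overlapped.

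Centred profiles across the 6 libraries showed which members moved together. The difference between profiles was measured as the root mean square over libraries of the log2 CPM after subtracting the mean of each gene. The closest pair was Dcn and Bgn (0.19), followed by Lum and Aspn (0.28), Lum and Prelp (0.35) and Ogn and Aspn (0.36). Dcn and Bgn do not share a locus. Among pairs on the same chromosome, Ogn and Aspn differed by 0.36, Ogn and Omd by 0.49, Dcn and Lum by 0.67, Aspn and Omd by 0.71, and Prelp and Fmod by 0.96. The nearest member was a gene of the same chromosome for Ogn (Aspn), Omd (Ogn) and Fmod (Prelp). It was a gene of another chromosome for Dcn, Bgn, Lum, Aspn and Prelp. Fmod was the farthest from the mean of the 8 genes (0.90) and Aspn the nearest to it (0.29).

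**Figure D4:**
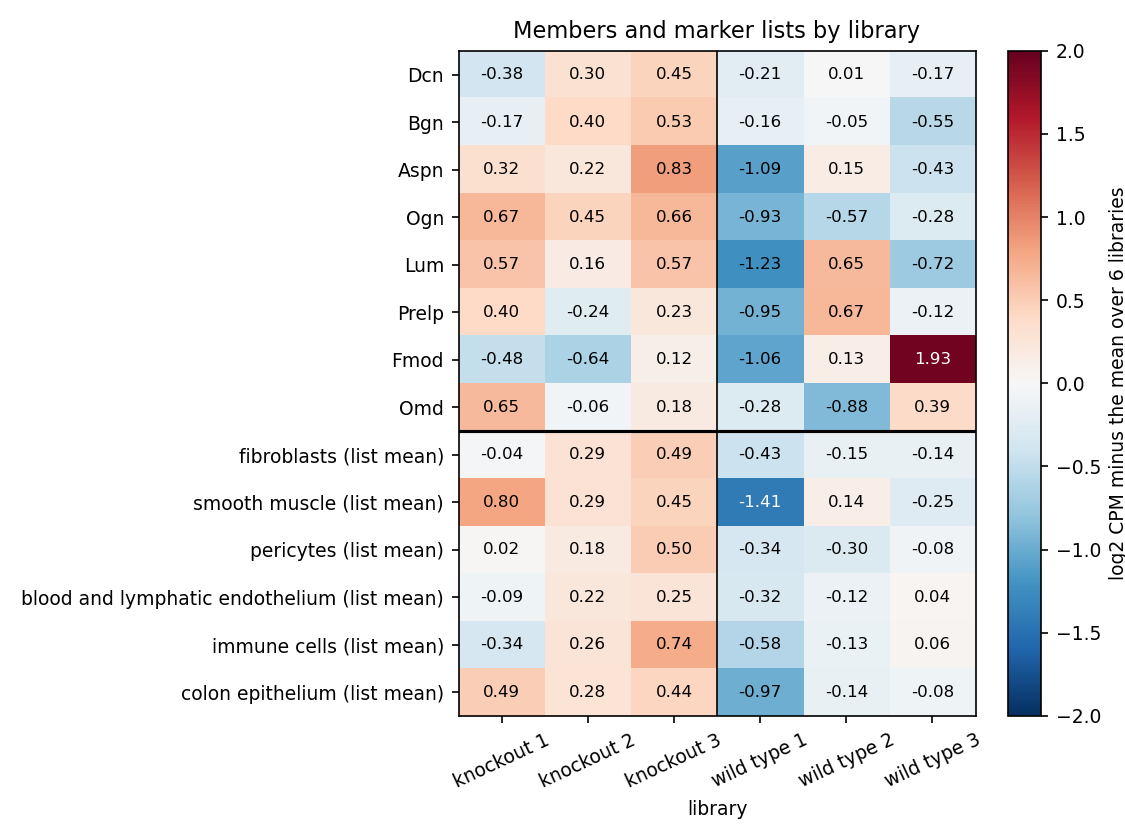
Log2 CPM minus the mean over the 6 libraries (colour and printed value) for the 8 proteoglycan genes and, below the line, for the mean of 6 marker lists, by library. Wild-type replicate 1 is below the mean (blue) for all 8 proteoglycan genes, Fmod is dark red in wild-type replicate 3 at 1.93, and Dcn is lowest in knockout replicate 1 at −0.38.

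Of 13138 other genes (log2 CPM averaging 1 or more), those near to the mean profile of the 8 included Clrn3, Tspan8, Acy1, Fgl2, Hspa12b, Gstk1 and Chpt1, with root mean square differences of 0.05 to 0.08. Each of them was lowest in wild-type replicate 1 and highest in knockout replicate 3. The nearest gene to a single member was Ppm1e for Ogn (0.11), Nrros for Dcn (0.04), Slc2a10 for Lum (0.14), Cyp7b1 for Bgn (0.06), Cd177 for Prelp (0.09), Etnppl for Aspn (0.09), Tspan17 for Omd (0.16) and Ddit4l for Fmod (0.32). Nothing is read from the names, since 13138 genes were compared over only 6 libraries.

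Other genes were read from lists, each beside the same measure over all tested genes. With edgeR's quasi-likelihood test and Benjamini-Hochberg adjustment, 0% of the 16281 genes passed an adjusted p of 0.05 (the smallest was 0.0646), and 10.7% had an unadjusted p under 0.05, 6.63% higher and 4.12% lower in the knockout. DESeq2 passed 2.21% of the genes to which it gave an adjusted p. Of all log2 fold changes 47.9% were positive.

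The summed level of fibroblast markers was higher in every knockout library. The 22 fibroblast markers, all tested and with 0 of the 8 members among them, summed to 1847 to 2423 CPM in the knockout libraries and 1309 to 1796 CPM in the wild type. Another list here also holds 6 of them, such as Col1a1, Col3a1 and Postn. Col3a1 was the largest part of the sum, at 671.5 to 906.9 CPM in the knockout and 382.7 to 665.9 CPM in the wild type. No fibroblast marker was at 0, 19 of 22 fold changes were positive, beside 47.9% of all genes, and their median was 0.51 (log2). The 3 negative ones were Prrx1 (−0.69), Fbln1 (−0.17) and Gsn (−0.02). In edgeR 0 passed in either direction, and 8 were higher at an unadjusted p under 0.05, beside 6.63% of all genes. Dpep1 (1.71), Tcf21 (0.64) and Dpt (0.77), the gene of the decorin-binding protein dermatopontin, had the smallest unadjusted p. In bulk tissue, more cells of a type and more RNA per cell cannot be told apart. The part of the fibroblast level in the proteoglycan differences was not tested, but the members can be set beside it within each library. Relative to the mean log2 CPM of the 22 markers, Ogn was 1.89, 1.35 and 1.34 higher in the knockout replicates and 0.68, 0.76 and 1.05 higher in the wild type, so the groups stayed apart with a difference of 0.70. The other 7 members overlapped on this scale, with differences of 0.42 for Aspn, 0.38 for Lum, 0.02 for Bgn, 0.03 for Omd, −0.22 for Prelp, −0.24 for Dcn and −1.15 for Fmod. Over all tested genes 1.54% were higher without overlap on this scale and 40.4% did not overlap in either direction. Only the fibroblast list was used as a reference in this way. The smooth muscle list had a larger median log2 fold change, 0.93. Its mean log2 CPM was 6.42, 5.91 and 6.07 in the knockout replicates and 4.21, 5.76 and 5.37 in the wild type. The members were not set beside that list or any other. Whether Ogn stays apart relative to other lists is therefore not given here.

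**Figure D5:**
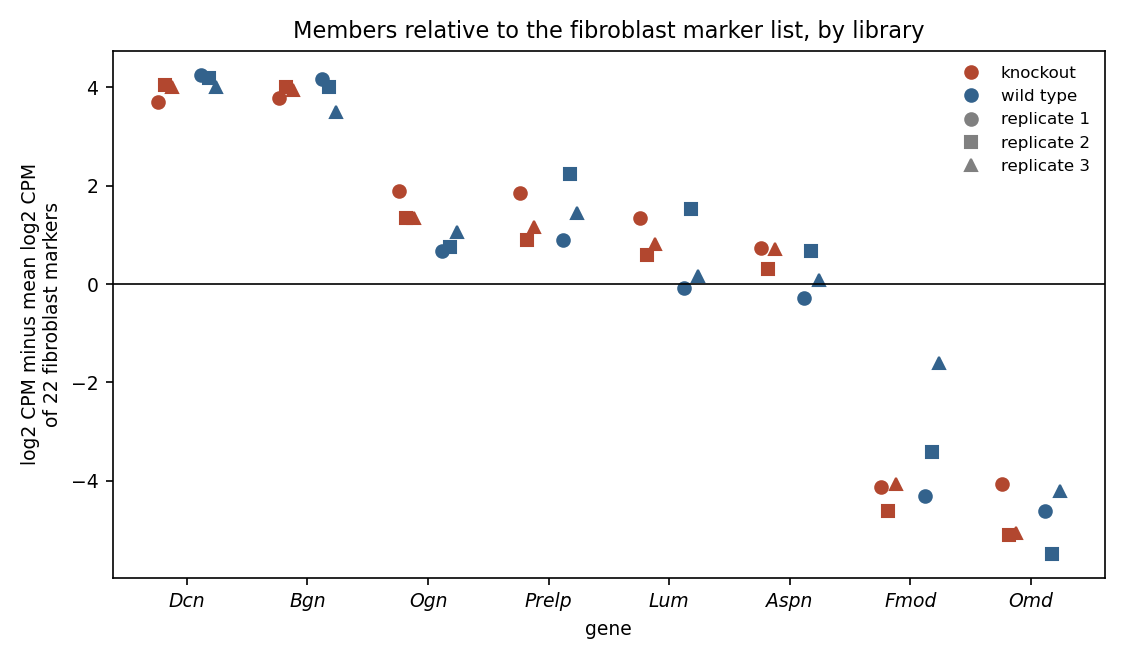
Log2 CPM of each proteoglycan gene minus the mean log2 CPM of 22 fibroblast markers in the same library (vertical axis), with knockout in red, wild type in blue and marker shape for the replicate number. Ogn is the gene whose red points, 1.34 to 1.89, all lie above the blue points, 0.68 to 1.05.

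Summed markers of other cell types did not overlap between the genotypes for some types and overlapped for others. The 14 smooth muscle markers summed to 1348 to 1929 CPM in the knockout and 611.6 to 1263 CPM in the wild type, with Mylk (0.50), Myl9 (1.11) and Acta2 (1.00) first by unadjusted p. The 8 pericyte markers summed to 432.1 to 567.5 and 304.2 to 392.3 CPM, with Rgs5 (0.53), Cspg4 (0.63) and Abcc9 (0.48). The 12 endothelial markers overlapped, at 732.8 to 918.7 and 830.1 to 1364 CPM, with Vwf (0.42), Plvap (0.54) and Kdr (0.41). Most of that sum was Prox1, at 372.5 to 596.4 CPM in the knockout and 540.2 to 1137 CPM in the wild type (−0.66). Pecam1 (0.28) and Lyve1 (0.64) of the same list stood far lower, at 42.1 to 71.2 and 6.44 to 25.8 CPM over all libraries. Which cells the Prox1 reads came from was not tested. Cdh5 had −0.13, and 10 of the 12 markers had a positive log2 fold change. For enteric neurons and glia the 10 markers summed to 45.6 to 53.4 CPM in the knockout and 63.5 to 80.4 CPM in the wild type, although 7 of the 9 tested had a positive log2 fold change. Ret, at 23.5 to 38.4 and 48.4 to 61.8 CPM, made up most of the sum and had −0.86, while Stmn2 had 1.27 and Uchl1 0.68. The 16 immune markers overlapped, at 335.9 to 551.4 and 326.8 to 434.8 CPM, with Adgre1 (0.55), Kit (0.71) and Cd68 (0.51). Of the 16, 12 had a positive log2 fold change and 4 a negative one, S100a8 (−0.42), S100a9 (−0.33), Cpa3 (−0.25) and Csf3r (−0.07). The 15 colon epithelium markers had a median of 0.21. Those with the smallest unadjusted p, the transport and carbonic anhydrase genes Aqp8 (3.50), Car4 (2.48) and Slc26a3 (2.34), were far above it. Of the 15, 11 had a positive log2 fold change and 4 a negative one. The negative ones were Epcam (−0.05), Cdh1 (−0.03), Krt18 (−0.26) and Krt20 (−0.05). Other epithelial genes were slightly positive, such as Krt8 (0.15), Krt19 (0.21), Vil1 (0.11) and Cldn7 (0.04). In these lists 0 markers passed in edgeR. With DESeq2 Dpep1, Mylk, Myl9, Acta2, Ret, Aqp8 and Car4 passed among the markers named by smallest p. No marker was at 0 in all libraries. Their part in the proteoglycan values was not tested.

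Markers of tissues that could be carried along with a tumour were mostly low. The 9 mesothelial markers were dominated by Krt19, which epithelium also expresses (log2 fold change 0.21), and 4 of them were below the filter; Upk1b had −0.40 and Gpm6a 0.40. Of the 7 adipocyte markers 3 were tested, Cidec (−0.97), Lpl (0.12) and Fabp4 (0.11), while Adipoq, Plin1, Lep and Retn were below the filter. The 11 bone and cartilage markers summed to 3.01 to 10.3 CPM in all libraries, with 4 tested, among them Col9a1 (−1.85), Col2a1 (−0.96) and Dmp1 (0.95).

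Of 10 further genes of the family, 8 were tested, and 0 passed in either direction, with a median log2 fold change of 0.31. The groups did not overlap for Optc (opticin, higher), Podnl1 (higher) and Chadl (lower), that is 2 higher and 1 lower, where 9.43% and 8.47% of all genes did so. Podnl1 had a log2 fold change of 0.78, Chadl −0.84 and Nyx, the nyctalopin gene of the retina, −0.84. Optc had 22, 21 and 22 reads in the knockout replicates and 0, 21 and 4 in the wild type, or 1.09 to 1.15 CPM against at most 0.711 CPM, with a log2 fold change of 1.95 and a wide standard error of 0.99. Podn (podocan), the most abundant of them at 13.6 to 41.0 CPM, had a log2 fold change of 0.02. Epyc (epiphycan), of the same gene cluster as Dcn and Lum, had 12 reads in knockout replicate 1, 2 in wild-type replicate 3 and 0 elsewhere.

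Genes around the members had fold changes of both signs. Of 13 neighbours in the files 10 were tested, and 0 passed in either direction, with a median log2 fold change of 0.19. Cenpp, which surrounds Ogn, Omd and Aspn on the other strand, stood at 6.99, 6.04 and 6.0 CPM in the knockout against 8.96, 8.12 and 7.79 CPM in the wild type. Its fold change, −0.39 on the log2 scale, was opposite in sign to those of the 3 proteoglycan genes within it. Nol8, Ippk and Bicd2, farther along chromosome 13, had −0.25, −0.01 and −0.07. Near Prelp and Fmod, Atp2b4, a calcium pump gene, had 0.78 and Btg2, an antiproliferative gene, had 0.39.

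For the enzymes that build the sugar chains most fold changes were positive and small. Of 28 genes 26 were tested, with 23 positive log2 fold changes, a median of 0.16 and 0 past the test in either direction. Dsel, an epimerase that turns chondroitin into dermatan sulfate, stood at 10.9, 17.0 and 19.8 CPM in the knockout against 9.66, 12.1 and 9.31 CPM in the wild type, with a log2 fold change of 0.62. Its paralogue Dse had 0.48. Pxylp1, a phosphatase acting on the linkage xylose, had 0.36, and B4galt4, a galactosyltransferase of keratan sulfate, had 0.50. The first enzymes of the linkage, Xylt1 and Xylt2, had 0.21 and −0.05. The largest log2 fold change of the list was that of B3gnt7, at 1.08 (SE 0.53), and its groups overlapped. It stood at 182.5, 147.1 and 252.5 CPM in the knockout against 36.9, 173.8 and 63.9 CPM in the wild type.

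Collagens and other fibril partners also had mostly positive fold changes. Of 25 genes 23 were tested, with 20 positive log2 fold changes, a median of 0.42 and 0 past the test in either direction, while 7 were higher at an unadjusted p under 0.05, beside 6.63% of all genes. Col6a2 and Col6a1, chains of the beaded collagen to which biglycan and decorin bind, had 0.70 and 0.61, and their groups did not overlap. Col6a2 stood at 110.0, 121.3 and 85.5 CPM in the knockout against 69.4, 58.3 and 67.5 CPM in the wild type. Mfap4, a microfibril protein, had 1.12, and the fibrillar collagen genes Col1a1, Col1a2 and Col3a1 had 0.42, 0.63 and 0.54. Thbs1 and Thbs2, matrix proteins that activate or bind growth factors, had −0.26 and −0.31.

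Ligands and receptors that the proteoglycans bind had fold changes of both signs. Of 21 tested genes 14 had a positive fold change, with a median of 0.13 (log2) and 0 past the test in either direction. Kdr, the VEGF receptor that decorin can bind, had 0.41, Bmp2 had 0.38, and Egfr, another decorin target, had −0.23. Larger values with larger errors were those of Tgfbr3 (betaglycan, 0.73, SE 0.45), Ccn2 (0.65, SE 0.35), Bmp4 (0.49, SE 0.27) and Erbb4 (−0.62, SE 1.3). Tgfb1, Tgfb2 and Tgfb3 had 0.02, 0.08 and 0.19, and the biglycan receptors Tlr2 and Tlr4 had −0.10 and −0.01, each smaller than its standard error (0.19, 0.18, 0.21, 0.14 and 0.15). Among 11 tested genes of the TGF-beta response of fibroblasts the median was 0.28 and 0 passed in either direction. Postn (periostin) had 0.58 and Ccn2, which is in both lists, 0.65, while Smad7 had −0.28.

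Proteases known to cut matrix proteoglycans went in both directions. Of 17 genes 16 were tested, 9 with a positive and 7 with a negative log2 fold change, and 0 passed in either direction, with a median of 0.04. Mmp7 (matrilysin, made by epithelium) stood at 296.1, 212.8 and 199.2 CPM in the knockout against 577.0, 441.5 and 399.0 CPM in the wild type, a difference of −1.0 on the log2 scale with no overlap. Mmp2, a gelatinase of stroma, had 0.56, and Ctsk, a collagen-degrading cathepsin, had 0.92. Bmp1, which trims the propeptide of biglycan and osteoglycin, had 0.34.

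Of the 13 large and basement membrane proteoglycans 10 were tested, with 6 positive fold changes, a median of 0.26 (log2) and 0 past the test in either direction. Hspg2 (perlecan) had 0.40, Cspg4 0.63 and Col18a1 0.46. The 4 negative ones were Spock2 (−0.36), Agrn (−0.26), Esm1 (−0.59) and Srgn (−0.01). Spock2 was the most abundant of the list, at 487.1 to 1476 CPM. The 13 genes summed to 1123 to 1714 CPM in the knockout and 1352 to 2077 CPM in the wild type, with overlap. Vcan (versican), a large chondroitin sulfate proteoglycan of stroma, had 0.40, and Acan, Bcan and Ncan were below the filter.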

How the data were processed

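Ribosome-depleted RNA of 6 tumour samples was sequenced. The authors deposited 1 table per sample of raw read counts (whole numbers) by gene symbol. Per the submitters' processing notes, mm10, TopHat2, edgeR and limma were used. Their versions, the read counter, strandedness and annotation: not given in the sources used here. Totals were 17937821 to 29742757 reads. Counts were tested with edgeR 4.0.16 (quasi-likelihood, TMM, filterByExpr, group as the only term, two-sided, Benjamini-Hochberg over 16281 genes, threshold 0.05) in R 4.3.3. The standard error is the log2 fold change divided by the square root of F. CPM uses TMM-scaled library sizes, and log2 CPM a prior count of 2. Positions and lengths come from GENCODE M21 (GRCm38, the assembly of mm10), promoter windows from RefSeq (GRCm38.p6), where 6 of the 8 genes matched. The test was checked on simulated counts.

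The members and gene lists, 8 pathway and 11 marker lists, were chosen with earlier results of these data known. Named are the 8 genes, the 3 genes per list with the smallest unadjusted p, the nearest profiles (1 of the 8 nearest to the mean is not reported here), and further genes picked after their values were seen. Of the sex-chromosome list, Xist had −2.16, Eif2s3y 1.46 and Kdm5d 0.11. Alternatives were DESeq2 1.42.0, limma-voom (limma 3.58.1), the replicate number as a block, 3 scalings, 2 filters, each library left out in turn, and another gene length.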

Additional observations from a re-analysis of the deposited data

How the results depend on the processing

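Across 14 alternatives the 8 proteoglycan genes gave 111 log2 fold changes, of which 2 changed sign. Signs turned for Fmod without wild-type replicate 3 (0.05; range −1.65 to 0.05 when single libraries were left out) and Prelp without wild-type replicate 1 (range −0.17 to 0.64). Among other named genes signs turned without wild-type replicate 3 for Upk1b (range −0.86 to 0.10), without wild-type replicate 1 for Gpm6a (−0.13 to 1.97) and Cd177 (−0.20 to 0.51), and without wild-type replicate 2 for Fabp4 (−0.02 to 0.36). The cause was not tested. The median over the 8 genes lay between 0.39 and 0.63 when single libraries were left out. The number of genes past the threshold, 0 in edgeR and limma-voom, was 337 with DESeq2, among them 2 collagen genes (Col6a1 and Col6a2), 1 protease gene (Mmp7), the markers Dpep1, Mylk, Myl9, Acta2, Ret, Aqp8 and Car4, and Ppm1e. It was 0 to 1 when single libraries were left out, the 1 being Eif2s3y without wild-type replicate 3. With the replicate block 0 genes passed, and the median over the 8 genes was 0.54. Same-numbered libraries did not deviate together (correlations −0.15, −0.17 and −0.07, beside −0.09 to 0.23 for differently numbered pairs). The labels give only a replicate number. These few correlations cannot show whether same-numbered libraries were handled together. With the longest transcript as length, the mean share of Bgn rose from 29.8% to 46.2%, that of Dcn was 28.8% in place of 34.1%, and that of Aspn 4.68% in place of 6.75%. Fmod and Omd, with 9 to 152 reads, are limited by depth.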

Other observations

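Eif2s3y, a Y-linked gene, measured 60.0, 64.2 and 66.6 CPM in knockout replicates 1 to 3 and 7.95, 5.65 and 55.9 CPM in wild-type replicates 1 to 3. The Y-linked genes Kdm5d (44.9 to 55.2 CPM) and Ddx3y (91.8 to 129.2 CPM) had no such gap. Wild-type replicate 3, the library with the highest Fmod, Kera and Ecm2, was the 1 wild-type library with Eif2s3y near the knockout level. The gene was singled out after its values were seen.

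Wild-type replicates 1 and 2 were the lowest and the highest library for both Lum and Prelp, and the largest ratio between libraries of the wild type was 3.70 for Lum and 3.09 for Prelp, against 1.33 and 1.56 in the knockout. For Dcn the wild type was the tighter group, with a ratio of 1.16 against 1.78. With 3 libraries a group, these spreads are given as values only.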
